A study of Arabidopsis thaliana with 44 samples.

Results

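In wild-type Arabidopsis shoot apices 416 transposable elements gave almost no RNA, and in ddm1 apices each gave at least 10 CPM, counts scaled to a library total of 1000000. They were chosen from 31189 annotated elements by 2 limits, a mean below 0.2 CPM over the 16 wild-type libraries and a mean of at least 10 CPM over the 4 ddm1 libraries. A further 7 elements were left out by name beforehand, 1 of which met both limits. Because the ddm1 and wild-type levels made the choice, the height of these elements in ddm1 is described without a test, and tests are given only for contrasts between other groups and for genes.

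The 44 libraries came from shoot apices of Col-0 seedlings grown in soil under 16 h light and 8 h dark and harvested at 7 days. The mutant groups, 4 libraries each, were ddm1, the double mutants ago4ago9 and ago5ago9, the triple mutant ago4ago5ago9, and the single mutants ago4, ago5 and ago9. The wild types were wt21 and wt col-0, 8 libraries each. In wt21, replicates 1 to 4 had totals of 4985459 to 6569243 counts and replicates 5 to 8 had 8826833 to 10035015. In wt col-0 these were 5094594 to 6577655 and 7529639 to 10168457 counts. The labels do not say what sets these replicates apart. All 8 form 1 group here, and wt col-0 replicates 1 to 4 alone serve as an alternative control. The labels name no mutant allele, do not tell what sets wt21 apart from the other wild type, how many plants were pooled, or whether libraries of a group came from separate plants. If they did not, p-values measure only the spread between these libraries, which may be technical. Library totals ran from 4474810 to 10620119 counts (median 6644238), so a count of 0 in 1 library allowed a level of up to 0.282 to 0.670 CPM (3 counts).

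DDM1 is a chromatin remodeller that slides nucleosomes and is needed to keep DNA methylation and histone H3 lysine 9 methylation in heterochromatin, where most Arabidopsis transposable elements lie. In plants without it, elements that are normally shut down can be transcribed, and some can move. ARGONAUTE proteins bind small RNAs. AGO4 and its relative AGO9 act in RNA-directed DNA methylation, much of it at transposable elements, whereas AGO5 is related to AGO1. The elements are given by identifier only, since the tables used here hold no family name, coordinate or sequence for them. CPM is not corrected for element length, so a higher CPM of 1 element than of another is more RNA in total and not more RNA per base.

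The labels were checked against the targeted genes as far as their counts allowed. DDM1 had 1, 7, 3 and 5 counts in the ddm1 libraries, which is 0.442 ± 0.219 CPM (SD, n = 4), against 13.6 ± 2.77 CPM in wt col-0 (SD, n = 8). AGO4 had 0 to 8 counts in the ago4 libraries and 1 to 7 in the ago4ago9 libraries. The libraries labelled ago9 and ago4ago5ago9 stood apart from this. AGO4 had 1, 0, 97 and 109 counts in the libraries labelled ago9, and 77 to 264 counts in those labelled ago4ago5ago9, against 108 to 334 in wt col-0. The label ago9 names no change of AGO4, so by AGO4 RNA its replicates 1 and 2 were the ones unlike the label. Of ago4ago5ago9, which does name AGO4, all libraries were. AGO9 had 0 counts in all ago4ago9 and ago5ago9 libraries, against 3 to 13 in wt col-0. In the libraries labelled ago9 it had 0, 1, 0 and 1 counts, and in those labelled ago4ago5ago9 0, 0, 0 and 3. AGO5 had 0 to 1 counts in ago5 and 0 in ago5ago9, against 0 to 13 in wt col-0, too few to check the label. Because of their AGO4 counts, the groups labelled ago9 and ago4ago5ago9 enter no contrast here. Their values are given as those of the libraries so labelled. Meristem and boundary markers (STM, KNAT1, CLV3, WUS and CUC2) summed to 14.3 to 23.0 CPM in ddm1, against 9.43 to 21.7 CPM in wt col-0, with WUS at 0 in all wt col-0 libraries. The root markers PLT1, PLT2 and RHD6 were at 0 in both groups, and the root marker WOX5 averaged 2.22 ± 0.651 CPM in ddm1 (SD, n = 4), against 1.12 ± 0.619 CPM in wt col-0 (SD, n = 8). Leaf mesophyll markers (RBCS1A, LHCB1.1 and LHCB2.1) summed to 31606 to 44514 CPM in the ddm1 libraries, against 46553 to 67629 CPM in wt col-0, ranges that did not overlap. Taken singly, only RBCS1A did not overlap, with 24592 to 33735 CPM in ddm1 against 39166 to 46111 CPM in wt col-0. LHCB1.1 overlapped (5683 to 11257 against 6528 to 20540 CPM), as did LHCB2.1 (1330 to 2039 against 858 to 3373 CPM). The apices thus included leaf tissue, with a lower sum of mesophyll marker RNA in ddm1, and the part of this in the element levels was not tested. In bulk tissue, fewer cells of a type and less RNA per cell cannot be told apart.

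Together the 416 elements supplied 39963, 35042, 41534 and 37925 CPM in ddm1 replicates 1 to 4, a mean of 38616 ± 2804 (SD, n = 4). They summed to 2.79 ± 1.93 CPM in wt21 (SD, n = 8), and in wt col-0 to between 1.22 and 23.3 CPM with a median of 1.97 CPM (n = 8). By CPM the 4 ddm1 libraries lay close together and far above all other libraries. In ddm1 these elements made up 76.7% to 78.4% of all counts in transposable elements, and 412 to 414 of them had a count in each library. The remaining elements were many more but weaker or not silent: 721 elements silent in the wild types had ddm1 means of 1 to 10 CPM, and 36 elements passed 10 CPM in ddm1 while at or above 0.2 CPM in the wild types. TMM scaling, which adjusts for RNA composition, lowered the ddm1 sum to 34283 CPM.

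**Figure D1:**
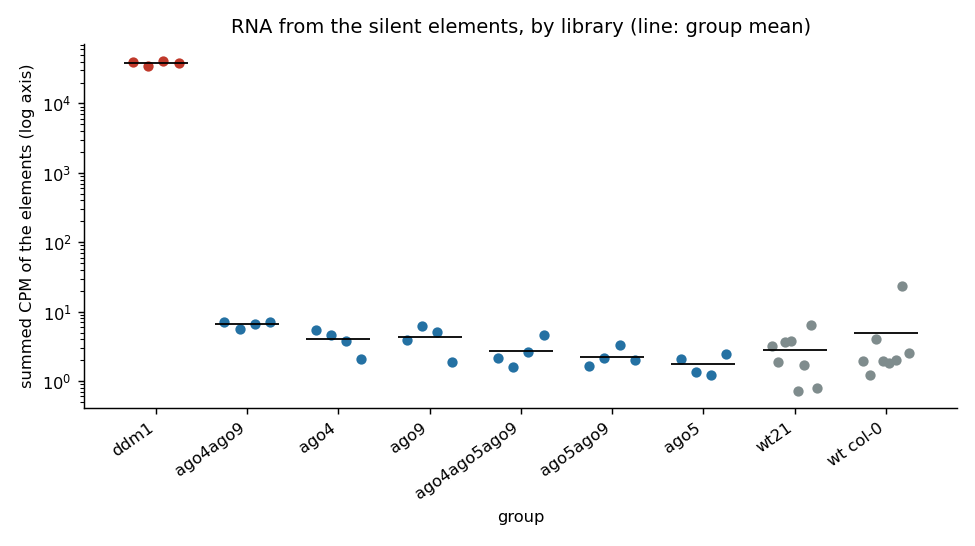
Summed CPM of the 416 elements in each of the 44 libraries (points, log axis) by group, with the group mean as a line. The 4 ddm1 libraries lie between 35042 and 41534 CPM, and the highest other library is wt col-0 replicate 7 with 23.3 CPM.

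The RNA was unevenly shared among the elements. The mean CPM in ddm1 ran from 10.0174 to 1153, with a median of 35.3 and quartiles of 16.7 and 89.7. Means were under 20 CPM for 121 elements, at least 100 CPM for 97, at least 500 CPM for 15 and at least 1000 CPM for 2. The 10 highest elements held 21.9% of the summed CPM, the 50 highest 56.5% and the 100 highest 73.1%, so that a minority of the elements gave most of the RNA.

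**Figure D2:**
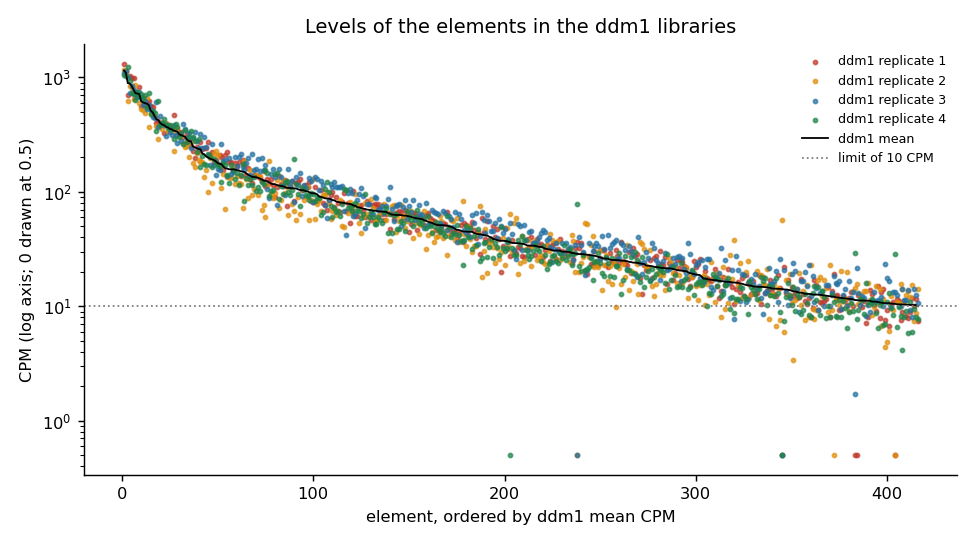
CPM of each element in the 4 ddm1 libraries (colours, log axis, 0 drawn at 0.5), with elements ordered by their ddm1 mean (line) and the limit of 10 CPM dotted. Means fall from 1153 to 10.0174 CPM, replicate 2 (orange) is the lowest library for 175 elements, and a few points lie at 0.

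The highest element, AT1TE52105, had 1322, 1156, 1086 and 1049 CPM in ddm1, against 4 counts in total over the 16 wild-type libraries. AT3TE63540 had 1143, 1107, 1132 and 1022 CPM in ddm1, against 7 wild-type counts. These 2 elements varied little between ddm1 libraries. AT4TE16945 varied more, with 709, 626, 1005 and 1228 CPM in ddm1, and it had 0 counts in all 16 wild-type libraries. Set against a floor of 3 counts over the 16 wild-type libraries together (0.0246 CPM), its mean was at least 36319-fold higher in ddm1. AT2TE15880 had 718, 747, 679 and 750 CPM in ddm1, against 1 wild-type count. AT3TE62685 had 568, 531, 656 and 721 CPM in ddm1, against 13 wild-type counts in 5 libraries.

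The other 5 of the 10 highest elements are all on chromosome 5. AT5TE42440 had 1038, 846, 725 and 932 CPM in ddm1, AT5TE41070 had 997, 804, 846 and 734, and AT5TE42135 had 818, 603, 749 and 694, and none of these 3 had a wild-type count. AT5TE42710 had 991, 651, 774 and 722 CPM in ddm1, against 1 wild-type count, and AT5TE42420 had 681, 866, 736 and 637 CPM, against 2. Replicate 1 was the highest library for 4 of these 5 elements, while AT5TE42420 was highest in replicate 2, so even strong elements with nearby identifiers did not follow 1 common order of libraries.

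Near silence in the wild types was set by the wild-type limit, which 30931 of all 31189 elements met at any ddm1 level. Of the 416 elements, 291 (70.0%) had 0 counts in all 16 wild-type libraries, and 230 had 0 counts in all 40 ago and wild-type libraries. For the 291, the median ddm1 mean was at least 1252-fold higher than the floor of 3 counts over the 16 libraries. At the ddm1 limit, AT4TE09315 (10.02 CPM), AT2TE48990 (10.2) and AT3TE57310 (10.3) were just inside, and AT5TE42010 (9.96), AT1TE45200 (9.96) and AT4TE09565 (9.90) just outside. At the wild-type limit, AT4TE15945, AT5TE48720 and AT2TE06955 were just inside with wild-type means of 0.171, 0.151 and 0.142 CPM. AT4TE16900, AT4TE15030 and AT5TE37350 were just outside with 0.216, 0.236 and 0.238 CPM. The limit therefore set aside strong elements with a few wild-type counts: AT4TE16900 had 1658 CPM in ddm1, more than any chosen element, and AT4TE15030 had 695 CPM.

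Much of the small wild-type signal came from 2 libraries. Wild type col-0 replicate 7 had 175 counts over 50 of the elements and wt21 replicate 7 had 62.1 counts over 35, and 17 elements had a count in both. The other 14 wild-type libraries had 7 to 26.0 counts each. In wt col-0 replicate 7 the counts fell on a few elements, chosen here after their values were seen. AT4TE15945 had 313 CPM in ddm1, against 19 counts in wt col-0 replicate 7, 2 in wt21 replicate 7 and 0 in the other 14 wild-type libraries. AT1TE44380 had 63.2 CPM in ddm1, against 10 and 2 counts in those replicates and 0 elsewhere in the wild types, and AT3TE53580 had 115 CPM in ddm1, against 8.63 and 4 counts and 0 elsewhere. Without both libraries the limits admitted 419 elements, which included all 416.

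Between ddm1 libraries the elements had a higher median spread than genes above the same 10 CPM limit, which were not matched to them in level. The median coefficient of variation (CV, the SD divided by the mean) over the 4 ddm1 libraries was 0.229 for the 416 elements and 0.180 for the 7802 genes with a ddm1 mean of at least 10 CPM. The highest library exceeded the lowest by more than 2-fold for 113 elements (27.2%), against 11.8% of those genes, and by more than 4-fold for 11 elements (2.64%), against 0.859% of those genes. The most even element was AT3TE55395, with 329, 314, 322 and 304 CPM in ddm1. AT5TE42355 (156, 166, 149 and 157 CPM) and AT3TE62215 (29.5, 26.9, 29.5 and 28.2 CPM) were nearly as even. Evenness was thus found at high and at low levels.

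By CPM, the highest and the lowest ddm1 library also differed between elements. Replicate 3 was the highest ddm1 library for 199 elements (47.8%), and replicate 2 was the lowest for 175 (42.1%) yet the highest for 100. Genes showed another pattern: replicate 2 was their highest library in 57.3% of cases and their lowest in 8.93%. Replicate 2 also had the largest TMM factor of the ddm1 libraries (1.27, against 1.03 to 1.15). CPM is not adjusted for this, and the part of scaling in either pattern was not tested. Pearson correlations of log2(CPM + 1) across the 416 elements, which share libraries and are not independent, ran from 0.887 to 0.897 for pairs with replicate 2 and from 0.924 to 0.948 for the other pairs.

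At the uneven end, 7 elements passed the 10 CPM mean although listed at 0 in at least 1 ddm1 library. AT5TE46220 had 0, 56.6, 0 and 0 CPM in ddm1, so that all of its 580 ddm1 counts lay in replicate 2. AT1TE09080 had 36.5, 0, 0 and 78.4 CPM, and AT1TE47365 had 0, 0, 13.4 and 28.7 CPM. These 3 elements, the most variable of all, were each strong in some ddm1 libraries and listed at 0 in others of the same genotype. The rest, chosen after their values were seen, were AT1TE46735 (0, 14.6, 1.70 and 29.1 CPM), AT1TE50375 (0, 15.6, 21.8 and 7.82), AT1TE50560 (19.3, 0, 18.4 and 10.9) and AT3TE40530 (27.4, 63.9, 53.4 and 0). No single ddm1 library held all the zeros.

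**Figure D3:**
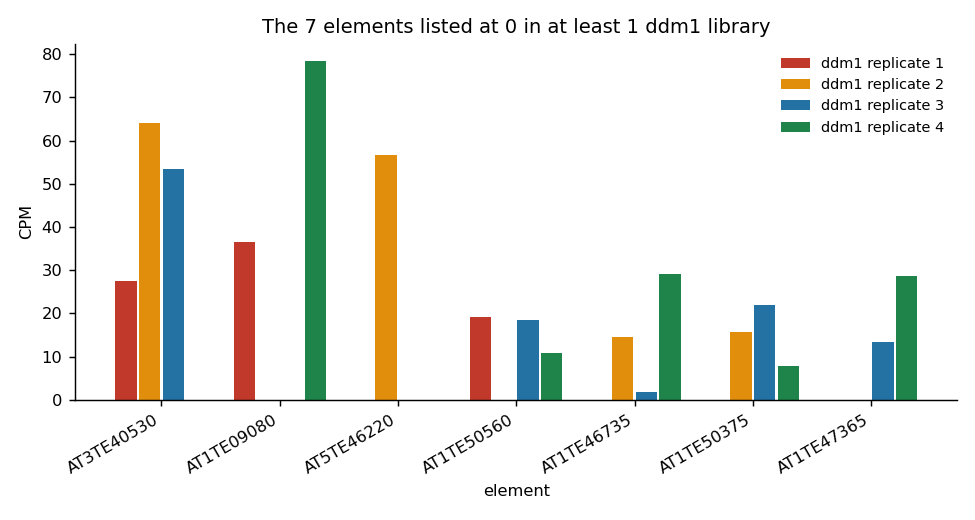
CPM in ddm1 replicates 1 to 4 (bars) of the 7 elements listed at 0 in at least 1 ddm1 library. AT5TE46220 is present in replicate 2 only, and AT1TE09080 in replicates 1 and 4 only, at up to 78.4 CPM.

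These zeros need to be read with the counting in view. In each of the 7 elements values above 0 included numbers that were not whole, as arises when a read that matches several features is divided between them. Over all 416, 355 elements (85.3%) had a fractional value (over 0.01 from a whole number) in at least 1 ddm1 library, and 270 had one in all 4. The share was 51.6% for the 721 weaker silent elements and 8.11% for the 7802 genes. How reads shared by near-identical copies were assigned is not given in the sources used here, so the level of a single fractional element is uncertain, and a 0 may be a failed estimate. The 61 elements with whole counts in all 4 ddm1 libraries had a median CV of 0.255, against 0.224 for the 355. These sets were not matched in level, and the part of read division in the spread was not tested. The highest of the 61 was AT3TE60280 with 213 ± 72.8 CPM, followed by AT3TE50125 with 134 ± 23.1 CPM and AT4TE50435 with 121 ± 45.3 CPM (SD, n = 4), chosen after their values were seen.

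The elements were spread over all 5 chromosomes but gathered in part of each. There were 94, 80, 93, 76 and 73 elements on chromosomes 1 to 5, or 22.6%, 19.2%, 22.4%, 18.3% and 17.5% of the 416, against 22.9%, 19.1%, 20.7%, 15.9% and 21.4% of all elements listed. Identifiers of this annotation are numbered in order along each chromosome, so the rank of an identifier gives a rough position without coordinates. On chromosome 5 the middle 50% of the chosen elements lay between 37.4% and 45.0% of the way through the listed identifiers. That stretch ran from 37.3% to 52.5% on chromosome 1, from 23.4% to 48.9% on chromosome 2, from 44.1% to 66.8% on chromosome 3 and from 25.6% to 41.7% on chromosome 4. All 5 stretches were narrower than the 25% to 75% that even spacing would give. For the 721 weaker silent elements the middle 50% lay between 36.9% and 54.5% on chromosome 1, 28.1% and 49.6% on chromosome 2, 41.4% and 68.3% on chromosome 3, 15.2% and 42.2% on chromosome 4 and 31.7% and 50.3% on chromosome 5. These stretches overlapped those of the 416, and were wider on chromosomes 1, 3, 4 and 5.

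**Figure D4:**
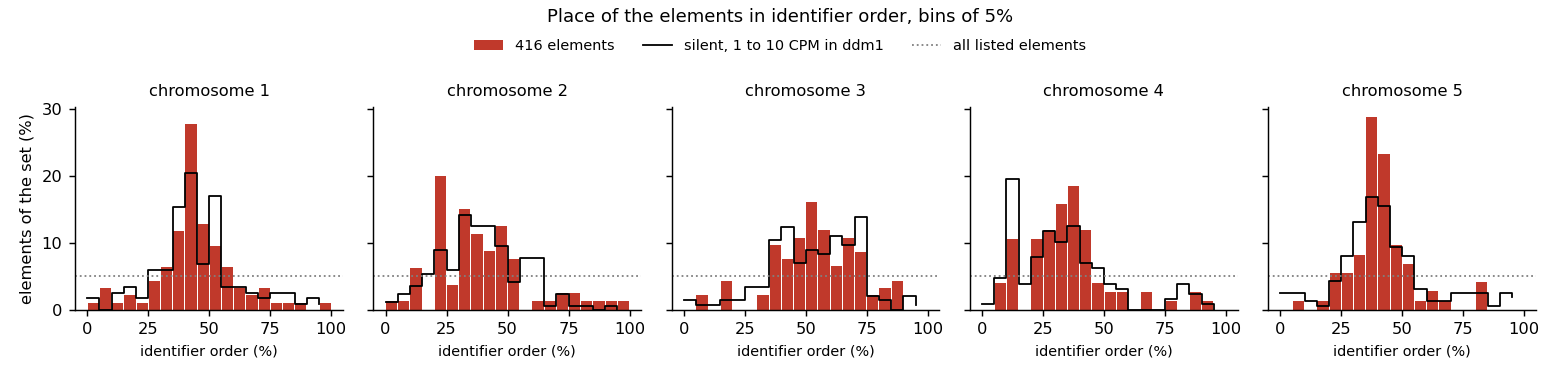
Share of the 416 elements (bars) in bins of 5% of identifier order on each chromosome, beside the 721 silent elements of 1 to 10 CPM in ddm1 (line) and even spacing (dotted). The bars gather in part of each chromosome, most narrowly on chromosome 5, where the middle 50% lie between 37.4% and 45.0%.

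Chosen elements that followed each other in the table could differ widely in level. There were 25 runs of neighbouring identifiers with 55 of the 416 elements, 21 of 2 elements, 3 of 3 and 1 of 4. Within a run, the highest mean exceeded the lowest by 1.20-fold to 46.3-fold, with a median of 3.32-fold, without correction for length. In the widest run AT5TE42680 had 21.4, 10.96, 17.3 and 18.1 CPM in ddm1 beside the 785 CPM mean of AT5TE42710. In the run of 4, AT3TE55355 to AT3TE55370, the means were 25.0, 21.0, 108 and 78.5 CPM. AT5TE46220, seen in replicate 2 alone, followed AT5TE46210 (66.0, 65.0, 87.3 and 43.8 CPM) and AT5TE46215 (182, 118, 202 and 115 CPM), both of which had RNA in all 4 ddm1 libraries. Elements of these runs were chosen for naming after their values were seen. In the most even run AT2TE18410 and AT2TE18415 had means of 11.3 and 13.5 CPM, so some neighbours had like levels and others did not.

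In the ago libraries nearly all of these elements were at or near 0. Summed over the 416 elements, the level was 6.62 ± 0.713 CPM in ago4ago9, 3.99 ± 1.45 in ago4, 2.25 ± 0.701 in ago5ago9 and 1.78 ± 0.593 in ago5 (SD, n = 4 each). It was 4.28 ± 1.88 CPM in the libraries labelled ago9 and 2.73 ± 1.33 in those labelled ago4ago5ago9. A single element, AT5TE48720, supplied on average 3.66 CPM of the ago4ago9 sum and 2.13 CPM of the ago4 sum. Without it the sums ran from 2.05 to 3.75 CPM in ago4ago9 and from 0.647 to 2.42 in ago4. They ran from 1.48 to 3.25 CPM in ago5ago9 and from 1.08 to 2.26 in ago5, so these ranges overlapped. All 24 ago libraries lay below the 23.3 CPM of wt col-0 replicate 7. Of the 416 elements, 285 (68.5%) had 0 counts in all 24 ago libraries, 383 had at most 3 counts in total, and 5 had more than 10.

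Contrasts between ago groups use no library that chose the elements, and were fitted with edgeR over 17557 features in all 44 libraries. Of the 416 elements 409 passed the filter on low counts, but through their ddm1 levels, and with ddm1 left out of the filter 1 element passed. In ago4 over ago5, 1 element was called higher and 0 lower, where 0.137% of all features were called and 0.0968% called higher. In ago4ago9 over ago5ago9, 1 was called higher and 0 lower, where 0.524% of all features were called and 0.376% called higher. In ago4ago9 over ago4, 0 elements were called by edgeR, where 0.074% of features were called (0.057% higher), with 4 elements at an unadjusted p under 0.05 and 0 called by DESeq2. In ago5ago9 over ago5, 0 elements were called by edgeR, where 0.0968% of features were called (0.0683% higher), with 1 element at an unadjusted p under 0.05 and 0 called by DESeq2. Of all 987 transposable elements tested, chosen here or not, edgeR called 6, 17, 11 and 0 in these contrasts, in the order given. The median log2 fold change of the 409 was 0 in all 4 contrasts, as it was over all features, which for elements at 0 in both groups holds no information on change.

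The single element called, both times, was AT5TE48720, 1 of the 3 elements just inside the wild-type limit. It had 21, 15, 17 and 11 counts in ago4, against 1, 2, 0 and 1 in ago5. The groups did not overlap, and the mean was 2.13 ± 0.722 CPM in ago4 and 0.171 ± 0.124 CPM in ago5 (SD, n = 4 each). By edgeR the log2 fold change was 3.56 ± 0.75 (SE), with an adjusted p of 0.0223 and a range of 0.00619 to 0.119 over the alternatives. This call rests on few counts: it was lost without ago4 replicate 1 (adjusted p = 0.115) or 2 (0.0524), and without ago5 replicate 1 (0.102), 2 (0.0850), 3 (0.119) or 4 (0.0895).

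The difference was seen again in the double mutants. AT5TE48720 had 20, 22, 34 and 29 counts in ago4ago9, against 1, 1, 0 and 2 in ago5ago9, again without overlap. The means were 3.66 ± 0.738 CPM in ago4ago9 and 0.158 ± 0.151 CPM in ago5ago9 (SD, n = 4 each). The log2 fold change by edgeR was 4.48 ± 0.71 (SE) with an adjusted p of 0.000130, and the call held in all 14 alternatives, with adjusted p from 1.10e-05 to 0.00309. The 2 contrasts were not shown to differ in size, since the interaction was 0.92 ± 1.33 (log2, SE) with an adjusted p of 0.969 by edgeR. In ago4ago9 over ago4 the log2 fold change was 0.75 ± 0.47 and in ago5ago9 over ago5 it was -0.17 ± 1.15 (SE), each with an adjusted p of 1 by edgeR. A p of this size does not show that the groups had equal levels.

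Across all groups the order of AT5TE48720 was ddm1 first with 14.8 ± 4.19 CPM (70, 193, 77 and 190 counts), then ago4ago9 and ago4. The libraries labelled ago9 had 13, 6, 0 and 1 counts of AT5TE48720, and in the same order 1, 0, 97 and 109 counts of AGO4, so this group was not uniform in either. The libraries labelled ago4ago5ago9 had 1, 8, 1 and 7 counts (0.525 ± 0.389 CPM). Both wild types were low, with 13 counts over 8 wt21 libraries (0.205 ± 0.213 CPM) and 5 counts over 8 wt col-0 libraries (0.0964 ± 0.185 CPM). The ago5, ago5ago9, wt21 and wt col-0 ranges overlapped, as did those of ago4ago9 and ago4. Its counts were whole in all ddm1 libraries.

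**Figure D5:**
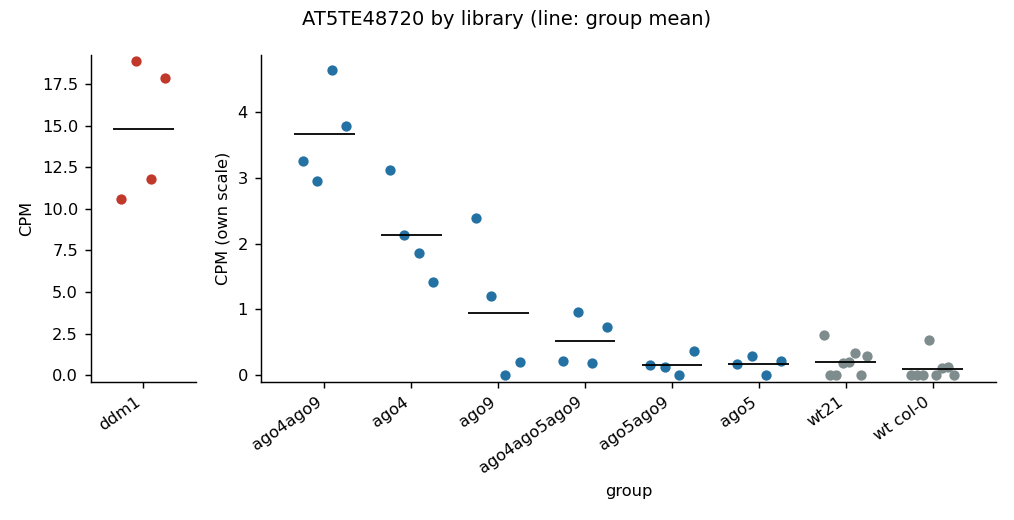
CPM of AT5TE48720 in each library (points) with the group mean (line), ddm1 on its own scale at the left. The ago4ago9 and ago4 means are 3.66 and 2.13 CPM, the ago5ago9 and ago5 means 0.158 and 0.171 CPM, and the ddm1 mean is 14.8 CPM.

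The next highest elements in the ago libraries had far fewer counts. AT3TE62685 had 24 counts over the 24 ago libraries, 21 of them in ago4ago5ago9 replicate 4 and 3 in ago9 replicate 3, so its place in this order came from 1 library. AT5TE42900 had 17.0 counts spread over all 6 ago groups, with about 3 at most in a library. AT2TE08110 had 11 counts, all in ago4 and in libraries labelled ago9, with at most 4 in a library. AT2TE28020 had 11 counts, with at most 4 in a library. None of these elements was called in the 4 contrasts, and AT3TE62685 had its counts in groups that enter none. The smallest p-values were those of AT2TE08110, 0.0423 in ago4 over ago5 and 0.0297 in ago4ago9 over ago4 before adjustment, and 0.870 and 1 after adjustment by edgeR.

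Genes of the silencing machinery were compared between ddm1 and wt col-0, a contrast that for genes was not used in the choice. Of a list of 38 genes 36 passed the filter, and 1 was called higher and 4 lower in ddm1 by edgeR. The 13.9% called stands beside 14.5% of all features called in this contrast (8.7% called higher) and 10.2% of the 16570 genes tested, and nothing is read from the count about the list. Its median log2 fold change was 0.01, as was that of all features, and the 31 genes not called lay between -0.95 and 0.48. DDM1 itself fell by 4.85 on the log2 scale (SE 0.26, adjusted p = 1.10e-19 by edgeR). ROS1, a DNA glycosylase that removes DNA methylation, averaged 3.56 ± 0.765 CPM in ddm1 (SD, n = 4), against a wt col-0 average of 12.1 ± 2.71 CPM (SD, n = 8), and fell by 1.77 on the log2 scale (SE 0.39, adjusted p = 0.000553 by edgeR). CMT2, a methyltransferase that maintains non-CG methylation in heterochromatin, averaged 10.4 ± 1.78 CPM in ddm1 (SD, n = 4), against a wt col-0 average of 17.7 ± 4.36 CPM (SD, n = 8), and fell by 0.80 (SE 0.20, adjusted p = 0.00293 by edgeR). For DDM1, ROS1 and CMT2 the call held in all 19 alternatives each.

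The other called genes were less firm. NRPE1, the largest subunit of RNA polymerase V of the RNA-directed DNA methylation pathway, averaged 7.33 ± 1.27 CPM in ddm1 (SD, n = 4), against 10.96 ± 2.24 CPM in wt col-0 (SD, n = 8), a log2 fold change of -0.62 ± 0.20 (SE, adjusted p = 0.0276 by edgeR). Its call was lost with wt21 as the control (adjusted p = 0.227), when only the 2 groups were fitted (0.0578), and without ddm1 replicate 2 (0.112), ddm1 replicate 4 (0.127) or wt col-0 replicate 4 (0.0617). SUVH5, a histone H3 lysine 9 methyltransferase, averaged 2.78 ± 0.989 CPM in ddm1 (SD, n = 4), against 1.11 ± 0.436 CPM in wt col-0 (SD, n = 8), a log2 fold change of 1.28 ± 0.38 (SE, adjusted p = 0.0140 by edgeR). Its call was lost without ddm1 replicate 1 (adjusted p = 0.103), with wt21 as the control (0.0579) and with wt col-0 replicates 1 to 4 as the control (0.0959). The maintenance methyltransferase MET1 (log2 fold change 0.15), the non-CG methyltransferase CMT3 (0.01) and AGO4 (-0.00) were not called. These 4 ddm1 libraries also had the lower leaf mesophyll marker sums given above, and the part of this in the gene values was not tested.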

How the data were processed

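Shoot apex RNA was measured in 44 Smart-seq3 libraries, grouped by their labels. The authors deposited a table of estimated counts per feature, unscaled and not pooled. Genome build TAIR10 and DESeq2 are named in the submitters' processing notes. Aligner, counter, annotation, use of strand and use of molecular identifiers are not given in the sources used here. CPM was computed from column totals after dropping 2 reporter rows (4.87e-05% of counts). Counts were rounded for tests with R 4.3.3 and edgeR 4.0.16: filterByExpr by group, TMM factors (0.855 to 1.33), quasi-likelihood fit with 1 mean per group, Benjamini-Hochberg adjustment over 17557 features, and a call at an adjusted p under 0.05. DESeq2 1.42.0 served as an alternative. The script was tested on simulated data. Python 3.11.15 (pandas 2.3.3, numpy 2.4.6, matplotlib 3.10.9) gave summaries and plots. Floors cover counting error only, while SD and SE values also include the spread between libraries. The edgeR test prints no SE, so each SE is approximate, the absolute log2 fold change divided by the square root of the F statistic.

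The elements, gene lists and contrasts were chosen with earlier results of these data known. Elements named are the 10 highest in ddm1, those called between ago groups, the 3 on each side of each limit, the 3 most and 3 least variable in ddm1 and the 5 highest in ago libraries. Genes named are DDM1, AGO4 and called silencing genes. Other names are marked as chosen after their values were seen, as were MET1 and CMT3. Gene symbols follow loci of the RefSeq table of TAIR10.1 or common usage. The table has 60885 features other than reporters, and 29696 of them are genes. Alternatives comprised other normalization, filters, tools, samples in the fit, limits, control groups, a replicate block and leaving out each library. With groups of 4, replicate numbers were not used as pairs.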

Additional observations from a re-analysis of the deposited data

Results flagged for a closer look

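The summed level of the 416 elements in wt col-0 replicate 7, 23.3 CPM, lay far from the other 7 libraries of its group, and its counts by element are given above. AT5TE46220 had 56.6 CPM in ddm1 replicate 2 and 0 in the other 3 ddm1 libraries. AT5TE48720 had 0.534 CPM in wt col-0 replicate 4, 3 counts, far from the others of that group. For normally distributed values, chance puts about 1 in 20 groups this far apart, and 3 of 51 groups examined were. Some groups were of elements named for their spread in ddm1, AT5TE46220 among them, and others had counts mostly at 0. That rate therefore cannot be set against the 3 of 51.

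The mCherry reporter row, which enters no comparison, had 0 counts in all 8 wt col-0 libraries and at most 1.27 CPM in a wt21 library. Above that level were ddm1 replicates 1, 2 and 4 (10, 14 and 14 counts) and ago4ago5ago9 replicates 2, 3 and 4 (15, 7 and 16 counts). Below it, ago4 had 10 counts in all, ago9 4, ago5ago9 13, ago5 8 and ago4ago9 0. The wt21 libraries had 34 counts in all, at most 12 in a library. The Clover reporter row was at 0 in every library.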

How the results depend on the processing

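The number of elements called in ago4 over ago5 was 1, but 0 when only the groups compared were fitted, where no element passed the filter (0 tested), and 0 to 1 when each library was left out. The other 3 contrasts had 1, 0 and 0 elements called under every alternative run, but few elements could be called in some: with ddm1 left out of the filter 1 element was tested in each, and with only the groups compared 1 was tested in ago4ago9 over ago4 and 0 in ago5ago9 over ago5. The summed ddm1 level was 34283 CPM with TMM scaling, and 37644 to 39808 CPM when each ddm1 library was left out. The number of elements inside the limits was 382 with TMM scaling, 588 at 5 CPM and 295 at 20 CPM in ddm1, and 402 to 424 when each ddm1 library was left out. Silencing genes called numbered 4 to 6 over all alternatives. Replicate numbers did not pair the libraries (correlations of same-numbered deviations from -0.184 to 0.124, and not every library matched its own number best). With a replicate block the contrasts had 1, 1, 0 and 0 elements called, 6 silencing genes were called, and SUVH5 was lost (adjusted p = 0.0909 by edgeR). Depth limits the ago and wild-type values, since 3 counts in a library are 0.282 to 0.670 CPM and most elements had 0.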
